A study of Mus musculus with 16 samples.

Results

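The 10 genes described here make and use GDP-fucose, the activated form of the sugar fucose. The rule that chose them used their names and not their values. They are *Gmds*, *Tsta3*, *Fuk*, *Fpgt* and *Slc35c1*, which supply GDP-fucose, and *Fut2*, *Fut8*, *Fut9*, *Fut10* and *Fut11*, which transfer fucose to glycans or proteins. They are 10 of the 37583 genes counted in a study of RNA from mouse cortex and cerebellum. A second annotation entry with the name *Fut9* had 0 counts in each of the 16 libraries, and all values for *Fut9* are those of the other entry. All 10 genes passed the filter on low counts in every comparison.

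Cells make GDP-fucose by a de novo and a salvage route. In the de novo route, *Gmds* encodes GDP-mannose dehydratase, and *Tsta3* encodes the enzyme that completes GDP-fucose. In the salvage route, free fucose is phosphorylated by fucokinase, the product of *Fuk*, and joined to a guanine nucleotide by the product of *Fpgt*. *Slc35c1* encodes the transporter that brings GDP-fucose into the Golgi. *Fut8* encodes the enzyme that adds core fucose to the innermost sugar of N-glycans. *Fut9* encodes the enzyme that makes the Lewis X epitope, a fucosylated lactosamine known for its presence on brain glycoproteins. *Fut2* encodes an enzyme that adds fucose to terminal galactose and is best known from epithelia of the gut. *Fut10* and *Fut11* encode related members of the family that have been placed in the endoplasmic reticulum.

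Snap-frozen cortex and cerebellum were taken for RNA sequencing from 4 wild-type animals and from 4 that carried the genotype *Slc39a8* A391T (A393T), 1 library per region and mouse, all on the C57BL/6J strain. The variant changes 1 amino acid of a metal transporter, so the mRNA level of *Slc39a8* does not check the genotype labels, and its levels of 2.14 ± 0.579 TPM in wild-type cortex and 2.46 ± 0.361 TPM in A391T cortex (SD, n = 4 each) gave no call (log2 fold change 0.17, adjusted p = 1 by edgeR). The study's methods describe the sequenced wild-type mice as males of 12 weeks whose brains were not perfused. The labels name no treatment. Age and sex of the A391T mice are not given in the sources used here. Libraries carry the labels' names, CTX for cortex and CBLM for cerebellum, and the same digits mark the same mouse. Values of single libraries are listed in the order CTX447, CTX448, CTX479, CTX480 and CBLM447, CBLM448, CBLM479, CBLM480 for wild-type mice, and CTX445, CTX446, CTX461, CTX462 and CBLM445, CBLM446, CBLM461, CBLM462 for A391T mice. A library held from 20813432 to 30497206 counts on genes. The names of 4 mice, 2 of each genotype, differ between the count files and the deposited RPKM table. Genotypes follow the count files here, and results under the other names are given beside the genotype comparison and where they end a call. The region comparison over all 8 mice with mouse as a block does not depend on these names.

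The tissue labels were checked against marker genes. Summed levels of 6 granule cell markers were between 2079 and 2709 TPM in cerebellum and between 18.8 and 33.0 TPM in cortex, and those of 6 cortical neuron markers between 2364 and 2938 TPM in cortex and between 762 and 1021 TPM in cerebellum. The A391T cerebellum library CBLM445 stood apart, with 71.0% of 14444 genes outside the range of the other 7 cerebellum libraries. The wild-type cortex library CTX480 stood apart from the other cortex libraries with 57.6% of these genes, where the remaining 14 libraries had from 12.4% to 33.3%. *Ttr*, a choroid plexus gene, was between 26.7 and 28.7 TPM in the cerebellum libraries CBLM462 (A391T) and CBLM479 (wild-type), and at 2316 to 7939 TPM in the other 6 cerebellum libraries. Summed levels of 5 striatum markers were 252.7 TPM in CTX461 (A391T) and between 563.7 and 857.4 TPM in the other cortex libraries. In cerebellum they were between 248.4 and 309 TPM. The part of these differences in the results below was not tested other than by leaving libraries out.

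Levels were compared between genes in TPM, which sets counts against gene length and gives every library an equal sum. *Tsta3* and *Fut8* were the 2 highest of the 10 genes in both regions, and *Fut2* was the lowest. In cortex, *Tsta3* was at 67.2 ± 3.09 TPM and *Fut8* at 64.1 ± 3.03 TPM (SD, n = 8 libraries). These 2 levels were not distinguishable, as *Tsta3* was above *Fut8* in 5 of 8 libraries (adjusted p = 0.18 by an exact sign-flip permutation test, two-sided, over 18 pairs of neighbours in the order). *Fut9* followed at 31.5 ± 2.85 TPM, then *Fuk* at 23.9 ± 1.73, *Fut11* at 21.6 ± 1.38 and *Gmds* at 19.1 ± 1.73 TPM. The lower end held *Slc35c1* at 14.9 ± 0.89, *Fpgt* at 13.6 ± 1.00, *Fut10* at 7.33 ± 0.411 and *Fut2* at 0.883 ± 0.352 TPM. Each of the other 8 neighbouring pairs in cortex differed, with adjusted p from 0.0108 to 0.0440 in the same exact permutation test, where 0.0078 is the smallest unadjusted p that 8 mice allow. Neighbours were set by the order of the same TPM means. These p-values, here and in cerebellum, therefore describe how steady a difference was over mice and do not test the order.

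In cerebellum the order changed at the top. *Fut8* at 109 ± 14.3 TPM was above *Tsta3* at 80.4 ± 4.07 TPM in 8 of 8 libraries, and *Fuk* rose to the next place at 51.5 ± 5.69 TPM (SD, n = 8). *Fut9* followed at 36.2 ± 4.56 TPM, *Fut11* at 25.6 ± 1.26, *Gmds* at 20.9 ± 1.87 and *Slc35c1* at 18.6 ± 1.94 TPM. *Gmds* and *Slc35c1* were not distinguishable, with *Gmds* higher in 6 of 8 libraries (adjusted p = 0.0662 by the exact permutation test). *Fpgt* at 13.7 ± 0.642, *Fut10* at 11.4 ± 1.01 and *Fut2* at 3.40 ± 0.223 TPM followed, as in cortex. The remaining pairs of neighbours in cerebellum differed, with adjusted p of 0.0108 or 0.0188 by the exact permutation test. An order by TPM depends on the gene lengths of the deposited table, which gives 5632 bases for *Fpgt* and 4775 for *Slc35c1* where the exons of the annotation used here add up to 3490 and 3275 bases. With each gene set on its exon bases, the cortex and cerebellum levels became 21.9 ± 1.62 and 22.1 ± 1.04 TPM for *Fpgt* and 21.7 ± 1.298 and 27.1 ± 2.82 TPM for *Slc35c1* (SD, n = 8). *Gmds*, at 19.0 and 20.8 TPM, then took the place of *Fpgt* above *Fut10* and *Fut2* in both regions. In cortex *Fpgt* was then above *Slc35c1* in 4 of 8 libraries and below *Fuk* in 5 of 8, and in cerebellum *Fuk* was above *Fut9* in 6 of 8. The places of these genes in the order, and the levels of ratios and shares that hold them, therefore rest on the lengths, while *Tsta3* and *Fut8* stayed at the top and *Fut10* and *Fut2* at the end. The difference of a gene between regions does not change with its length.

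**Figure D1:**
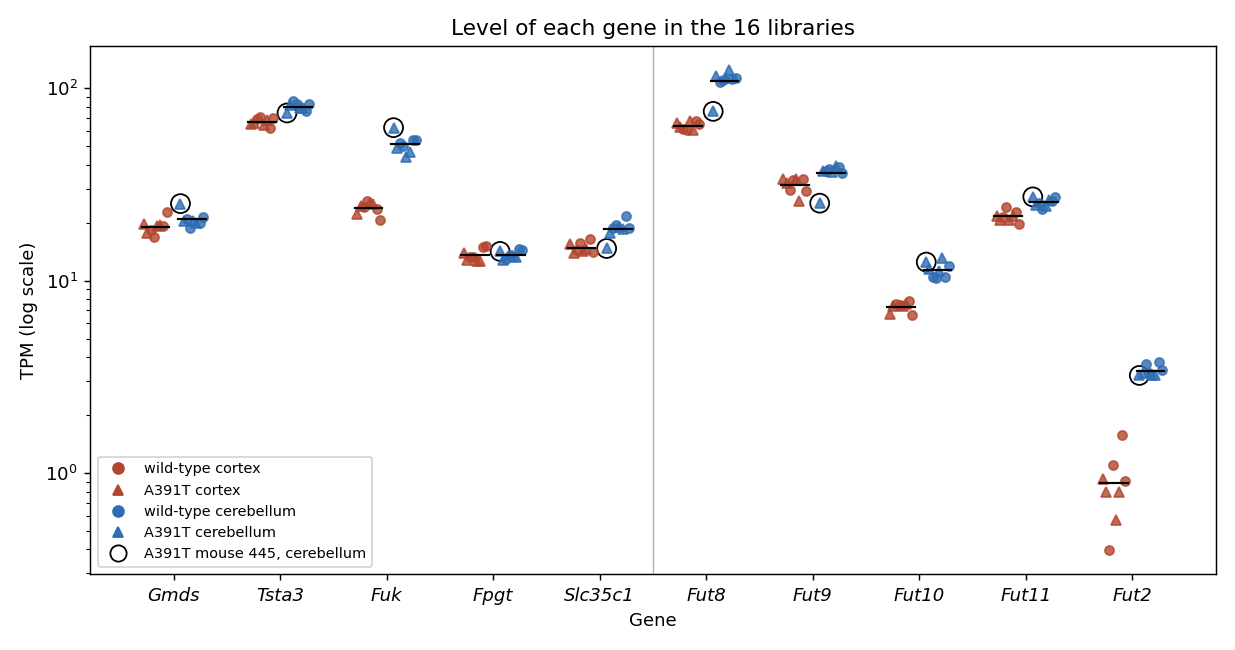
Level of each of the 10 genes in TPM (log axis) in 8 cortex and 8 cerebellum libraries, with circles for wild-type and triangles for A391T mice, a line at the mean of each region and a ring around CBLM445. The vertical line divides supply genes from fucosyltransferases, and the cerebellum points of *Fuk*, *Fut8*, *Fut10* and *Fut2* lie above all their cortex points.

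The region comparison asked which of these genes are expressed differently in cortex and cerebellum. In wild-type mice, *Fuk* and *Fut2* were 2-fold or more higher in cerebellum, *Fut8*, *Fut10* and *Slc35c1* were higher by less than 2-fold, and *Fpgt* was lower. *Gmds*, *Tsta3*, *Fut9* and *Fut11* did not pass the test. Thus 6 of 10 genes were called at an adjusted p under 0.05 in edgeR's quasi-likelihood test, 5 higher and 1 lower, beside 67.8% of the 16040 genes tested, 34.7% higher and 33.1% lower. Both criteria of the study, 2-fold and adjusted p under 0.05, were met by 2 of 10, both higher, beside 24.7% of all genes and 10.5% in that direction. The median log2 fold change of the 10 genes was 0.17 and that of all genes tested 0.02. With library totals in place of TMM scaling, the median of all genes was 0.14, and 60.6% of called genes were higher in cerebellum in place of 51.2%. *Fuk* lay close to 2-fold in wild-type mice (log2 0.91 to 1.13 over the alternatives), and under several of them *Fut2* was the 1 gene that met both criteria.

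In A391T mice 4 of 10 genes were called, all higher in cerebellum, beside 62.8% of 16005 genes called and 31.6% called higher. These were *Fuk*, *Fut2*, *Fut8* and *Fut10*, and *Fut2* was also past 2-fold, beside 24.7% of all genes and 9.8% in that direction. Over all 8 mice 6 of 10 genes were called, all higher, beside 74.4% of 16589 genes called and 38.8% called higher. Again 1 of them, *Fut2*, was past 2-fold, beside 25.2% of all genes and 10.5% in that direction. *Tsta3* (log2 fold change 0.14, adjusted p = 0.0166) and *Slc35c1* (0.20, adjusted p = 0.00208) joined the 4 genes above in edgeR's test. Without the 2 libraries that stood apart, 5 genes were called in wild-type mice (*Fpgt*, at -0.14, was lost), beside 11282 of all 16268 genes tested. In A391T mice 6 were called (with *Slc35c1* and *Tsta3*), beside 11797 of 16226 genes. Over all mice 8 were called, beside 13235 of 16703 genes. Those added there were *Fpgt* (-0.12, adjusted p = 0.0169) and *Fut9* (0.11, adjusted p = 0.0493, both edgeR). For 5 of 10 genes, *Tsta3*, *Fuk*, *Fut2*, *Fut8* and *Fut10*, all 8 cerebellum libraries lay above all 8 cortex libraries in TPM, beside 27.8% of all genes tested. The median tested gene was 1.11-fold higher in cerebellum on that scale.

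**Figure D2:**
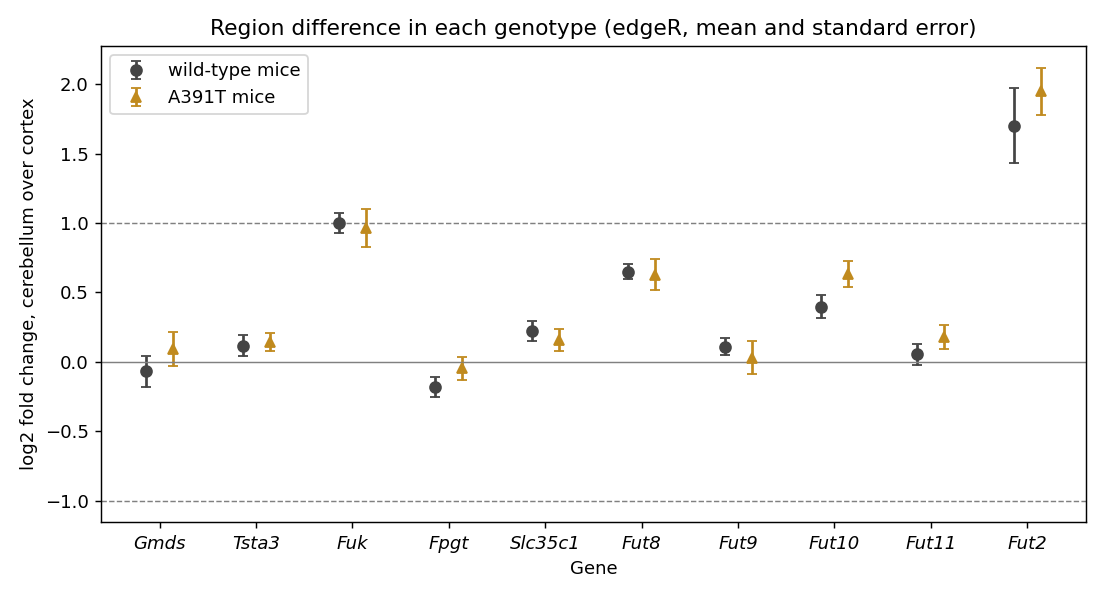
Log2 fold change of cerebellum over cortex for each gene in 4 wild-type mice (circles) and 4 A391T mice (triangles). Bars are standard errors computed from edgeR's test. Dashed lines mark 2-fold changes, and *Fuk* (1.00 and 0.97) sits at the line while *Fut2* (1.70 and 1.95) lies above it in both genotypes.

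Bulk RNA cannot tell fewer cells of a type from less RNA per cell. Summed markers of cell types moved with region beside these genes. The 5 astrocyte markers were between 1027 and 1331 TPM in cerebellum and between 438 and 530.3 TPM in cortex. The 5 microglia markers were between 55.6 and 80.6 TPM in cerebellum and between 240 and 288 TPM in cortex. The 5 Purkinje cell markers were between 4315 and 4996 TPM in cerebellum and between 416 and 551 TPM in cortex. Summed markers of oligodendrocytes and of endothelium overlapped between the regions. No marker of these lists was without counts over a whole group of libraries, and the part of cell type shares in the region differences was not tested.

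Among the supply genes, *Fuk* had the largest region difference. *Fuk* (ENSMUSG00000033703, chr8:113406363-113426359 of NCBIM37, minus strand) was at 24.0, 25.9, 23.6 and 20.7 TPM in cortex and at 51.9, 49.9, 53.9 and 54.2 TPM in cerebellum of the 4 wild-type mice. The 2 regions did not overlap. The log2 fold change was 1.00 (SE 0.07, adjusted p = 1.93e-07, edgeR), a 2.00-fold difference that lies at the 2-fold criterion itself, and it was 0.95 without CTX480. In the 4 A391T mice, *Fuk* was at 22.1, 24.5, 25.3 and 25.0 TPM in cortex and at 62.5, 48.8, 43.8 and 46.7 TPM in cerebellum. The highest of these came from the library that stood apart. The log2 fold change in A391T mice was 0.97 (SE 0.14, adjusted p = 0.000152, edgeR) and 0.80 without that library. *Fuk* made up 17.2% ± 1.34 of the summed TPM of the 5 supply genes in cortex and 27.8% ± 2.33 in cerebellum (SD, n = 8).

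*Fpgt* (chr3:154747885-154756342, minus strand), which acts after fucokinase in the same route, did not share this difference. It ranged from 12.6 to 15.1 TPM in cortex (median 13.3) and from 12.8 to 14.6 TPM in cerebellum (median 13.5), and the regions overlapped. In the wild-type mice it was lower in cerebellum, at a log2 fold change of -0.18 (SE 0.07, adjusted p = 0.0457, edgeR). With a replicate block for mouse the value was -0.18 again but the adjusted p was 0.058, under the names of the RPKM table it was -0.14 (adjusted p = 0.168, both edgeR), and the call held in 3 of 20 alternatives. In A391T mice the log2 fold change was -0.05 (adjusted p = 0.644, edgeR).

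The 2 genes of the de novo route differed little between regions. *Gmds* (chr13:31911448-32430483, minus strand) ranged from 16.8 to 22.6 TPM in cortex (median 19.2) and from 18.9 to 25.2 TPM in cerebellum (median 20.5), and the regions overlapped. The highest values, 22.6 and 25.2 TPM, were those of CTX480 and CBLM445, in which the median of the shortest 20% of genes was raised, and *Gmds* is 1576 bases long. *Tsta3*, shorter at 1300 bases, had its lowest cerebellum value in CBLM445, at 74.5 TPM. The part of length in these values was not tested. *Gmds* had a log2 fold change of -0.07 in wild-type mice (95% interval -0.31 to 0.17, adjusted p = 0.599) and 0.09 in A391T mice (-0.19 to 0.36, adjusted p = 0.546, both edgeR). *Tsta3* (chr15:75755114-75760160, minus strand) ranged from 62.3 to 70.6 TPM in cortex (median 67.6) and from 74.5 to 86.4 TPM in cerebellum (median 80.6), without overlap. Within a mouse its TPM was 1.14-fold to 1.24-fold higher in cerebellum, in 8 of 8 mice. On the scale of the edgeR fit the difference was smaller, with a log2 fold change of 0.12 in wild-type (adjusted p = 0.2) and 0.14 in A391T mice (adjusted p = 0.0766), which did not pass the test within either genotype. The call for *Tsta3* over all 8 mice was lost in 6 of 27 alternatives.

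*Slc35c1* (chr2:92292921-92300695, minus strand), the transporter, ranged from 14.0 to 16.4 TPM in cortex (median 14.6) and from 14.7 to 21.6 TPM in cerebellum (median 18.8). The lowest cerebellum value came from CBLM445, the library that stood apart, and lay within the range of cortex. In the wild-type mice *Slc35c1* had a log2 fold change of 0.22 (SE 0.07, adjusted p = 0.0175, edgeR), and without CBLM479 it was 0.17 (adjusted p = 0.082). The call held in 17 of 20 alternatives. In A391T mice it was 0.16 (adjusted p = 0.111) and, without CBLM445, 0.20 (adjusted p = 0.0121, both edgeR).

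Of the fucosyltransferases, *Fut8* was the highest in both regions and higher in cerebellum in both genotypes. *Fut8* (ENSMUSG00000021065, chr12:78340052-78577325, plus strand) was at 61.3, 60.7, 67.9 and 65.4 TPM in cortex and at 108, 111, 112 and 113 TPM in cerebellum of the 4 wild-type mice. The regions lay far apart compared with the spread between mice. *Fut8* had a log2 fold change of 0.65 (SE 0.05, adjusted p = 1.09e-06, edgeR), a 1.57-fold difference. In the 4 A391T mice, *Fut8* was at 65.9, 62.7, 67.9 and 61.0 TPM in cortex and at 76.0, 116, 113 and 125 TPM in cerebellum. The lowest cerebellum value was again that of CBLM445, which still exceeded all cortex values. The log2 fold change was 0.63 (SE 0.11, adjusted p = 0.000717, edgeR), and 0.74 without that library. With only the mice whose names match in both deposits, it was 0.50 and the call was lost (adjusted p = 0.0785, edgeR). *Fut8* took up 51.1% ± 1.64 of the summed TPM of the 5 fucosyltransferases in cortex and 58.6% ± 2.48 in cerebellum (SD, n = 8).

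*Fut9* (chr4:25536479-25727391, minus strand) ranged from 26.1 to 33.9 TPM in cortex (median 32.8) and from 25.3 to 39.6 TPM in cerebellum (median 37.2). Its cerebellum value was below its cortex value in 1 of 8 mice, that of CBLM445. *Fut9* had a log2 fold change of 0.11 in wild-type mice (95% interval -0.02 to 0.24, adjusted p = 0.123) and 0.03 in A391T mice (-0.23 to 0.29, adjusted p = 0.835, both edgeR), so no difference was called. Without CTX445 and CBLM445 the difference over the other 7 mice was 0.14 (adjusted p = 0.0206, edgeR). In CBLM445 the genes in the longest 20% were lower (median log2 difference -0.21) and those in the shortest 20% higher (0.12), with -0.12 and 0.22 in CTX480, and *Fut9* is the longest of the 10 genes at 15734 bases. *Fut8*, far shorter at 3375 bases, was lowest in CBLM445 too among the cerebellum libraries, at 76.0 TPM. *Fut9* was also at 39.0 and 39.6 TPM in the 2 cerebellum libraries with little *Ttr* and at 25.3 to 38.3 TPM in the other 6. The part of gene length and of choroid plexus in these values was not tested. *Fut9* made up 25.1% ± 1.39 of the summed TPM of the 5 fucosyltransferases in cortex and 19.4% ± 0.976 in cerebellum (SD, n = 8).

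*Fut10* and *Fut11* are close relatives, and *Fut10* alone of the pair was called in either genotype. *Fut10* (chr8:32297803-32372210, plus strand) was at 7.60, 7.44, 7.81 and 6.66 TPM in cortex and at 10.5, 10.3, 10.5 and 11.9 TPM in cerebellum of the 4 wild-type mice. In the 4 A391T mice it was at 6.74, 7.38, 7.40 and 7.57 TPM in cortex and at 12.5, 11.5, 11.2 and 13.0 TPM in cerebellum. All cerebellum values exceeded all cortex values. In the fit *Fut10* differed by 0.40 on the log2 scale (SE 0.08, adjusted p = 0.00135) in wild-type and 0.63 (SE 0.09, adjusted p = 0.000213) in A391T mice, both by edgeR. *Fut11* (chr14:21514190-21519419, plus strand) ranged from 19.8 to 24.3 TPM in cortex (median 21.6) and from 23.7 to 27.3 TPM in cerebellum (median 25.5), with overlapping regions. Its log2 fold change was 0.05 in wild-type (adjusted p = 0.535) and 0.18 in A391T mice (adjusted p = 0.0889, both edgeR).

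**Figure D3:**
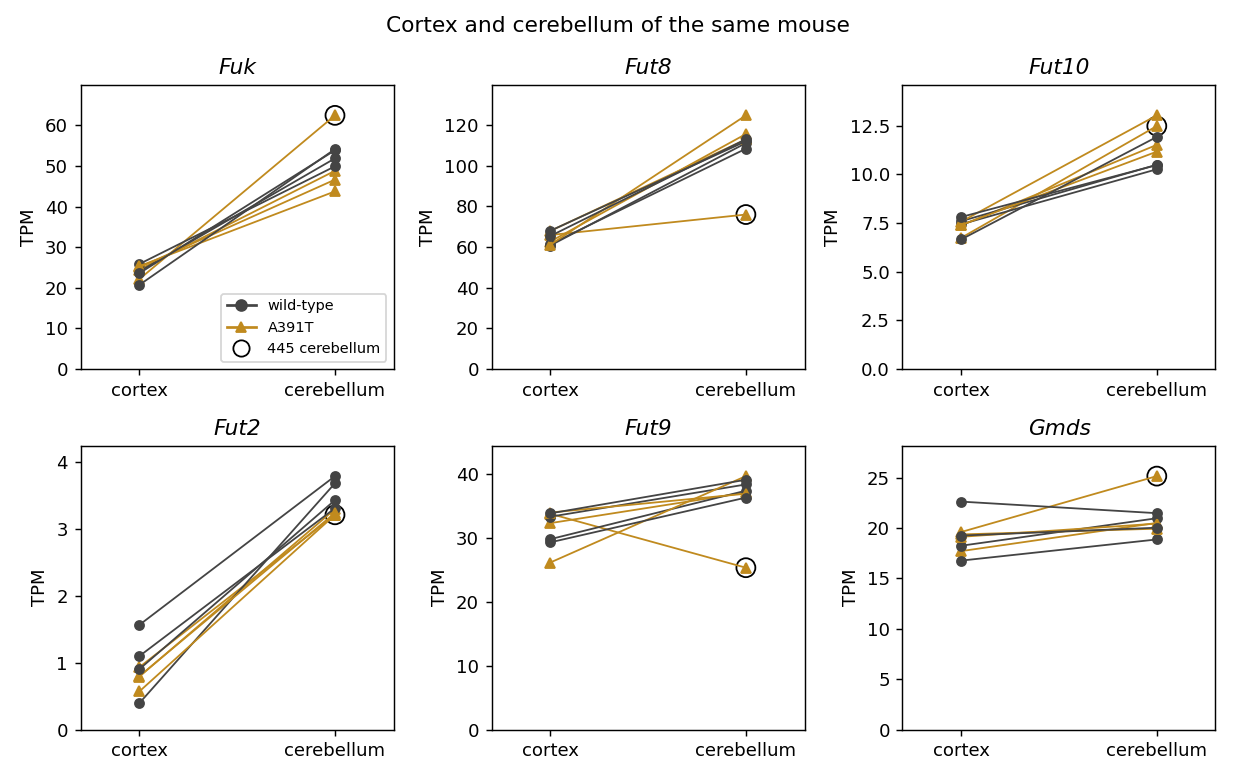
TPM of 6 of the genes in cortex and cerebellum, each line joining the 2 libraries of 1 mouse (grey circles for wild-type, ochre triangles for A391T), with a ring at CBLM445. Lines of *Fuk*, *Fut8*, *Fut10* and *Fut2* go up in 8 of 8 mice, while 1 line goes down for *Fut9* (to CBLM445) and 1 for *Gmds*.

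*Fut2* (ENSMUSG00000055978, chr7:52903965-52921764, minus strand) was the lowest of the 10 genes and had the largest fold difference. In cortex it had 8, 26, 28 and 16 counts in the wild-type mice, and in cerebellum 71, 66, 74 and 64 counts. This was 0.396, 1.10, 1.57 and 0.904 TPM in cortex and 3.68, 3.31, 3.79 and 3.43 TPM in cerebellum. Counts in A391T mice were 11 to 19 in cortex and 59 to 76 in cerebellum, again without overlap. The log2 fold change was 1.70 (SE 0.27, 95% interval 1.10 to 2.29, adjusted p = 0.000191) in wild-type and 1.95 (SE 0.17, adjusted p = 4.36e-06) in A391T mice, both by edgeR, and was called in all 20 alternatives of each.

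*Sec1*, a close relative of *Fut2*, lies 11294 bases from *Fut2* on the same strand (chr7:52933059-52949772). It went the other way, from 25 to 59 counts per library in cortex and from 1 to 7 counts in cerebellum. In wild-type mice its log2 fold change was -2.95 (SE 0.35, adjusted p = 1.76e-05, edgeR). Reads of 50 bases from the shared stretches of the 2 genes cannot be assigned to one of them, and 5.48% of the 2902 windows of that length in *Fut2* transcripts are identical in *Sec1*. The longest identical run is 180 bases, coding bases 372 to 551 of *Fut2*. It is shown in capitals, with 10 flanking bases of *Fut2* on each side in lower case, since it marks where counts on the pair could be lost or shared:
*Fut2* and *Sec1*: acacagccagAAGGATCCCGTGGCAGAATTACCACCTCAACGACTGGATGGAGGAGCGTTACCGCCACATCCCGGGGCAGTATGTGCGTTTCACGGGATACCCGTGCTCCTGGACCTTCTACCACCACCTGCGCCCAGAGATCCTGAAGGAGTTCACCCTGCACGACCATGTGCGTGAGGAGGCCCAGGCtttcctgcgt
These windows were shared with *Sec1* only, and the other 9 genes had 0 windows in common with a gene of another name. Of the exon bases of *Sec1*, 16.5% overlap *Ntn5*, and counting was done without strand.

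Promoter sequences from RefSeq (GRCm38.p6) matched 4 of the 10 genes, *Gmds*, *Slc35c1*, *Fut8* and *Fut11*. Those of *Fut8* and *Gmds* are shown because *Fut8* was the gene with the largest region difference among the 4 and *Gmds* was not called in any region comparison. Each covers the 250 bases before the most 5′ start of the gene, with the GC box (GGGCGG) and the CCAAT box (CCAAT), on either strand, in capitals. That of *Fut8* is chr12:77237854-77238103 on the plus strand and that of *Gmds* chr13:32338545-32338794 on the minus strand of that build.
*Fut8*: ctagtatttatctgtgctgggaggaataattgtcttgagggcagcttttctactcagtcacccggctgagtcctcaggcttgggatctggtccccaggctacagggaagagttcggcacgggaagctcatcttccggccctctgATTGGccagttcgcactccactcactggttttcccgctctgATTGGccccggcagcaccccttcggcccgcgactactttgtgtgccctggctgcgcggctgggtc
*Gmds*: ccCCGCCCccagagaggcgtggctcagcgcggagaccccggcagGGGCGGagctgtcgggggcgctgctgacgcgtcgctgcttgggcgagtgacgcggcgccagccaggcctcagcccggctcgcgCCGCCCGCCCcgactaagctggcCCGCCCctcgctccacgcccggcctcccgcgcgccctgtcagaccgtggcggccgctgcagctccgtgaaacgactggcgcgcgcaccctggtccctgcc
The *Fut8* window held 2 CCAAT boxes and 0 GC boxes, and 12 CpG dinucleotides. The *Gmds* window held 5 GC boxes and 0 CCAAT boxes, and 36 CpG dinucleotides, where the median of 32851 promoter windows was 6. A GC box was found in 32.7% and a CCAAT box in 33.8% of these windows. *Fut8* has 4 annotated starts in the table and *Gmds* 1, and these matches are descriptions of letters in the windows shown.

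Ratios within a library need no scaling between libraries, so 4 pairs of genes were compared in this way within each of the 8 mice. The ratio of *Fut8* to *Fut9*, core fucose against Lewis X enzyme, averaged 2.05 ± 0.166 over the cortex libraries and 3.02 ± 0.113 over the cerebellum libraries (SD, n = 8 each), with ranges of 1.82 to 2.34 and 2.87 to 3.15 that did not overlap. It was higher in cerebellum in 8 of 8 mice, by 1.48-fold (log2 difference 0.56 ± 0.10, adjusted p = 0.0104 by a two-sided exact sign-flip permutation test, adjusted over the 4 ratios). CBLM445, low in both genes, had a ratio of 3.00, inside the range of the other cerebellum libraries. The ratio of *Fut10* to *Fut11* averaged 0.339 ± 0.020 in cortex and 0.446 ± 0.029 in cerebellum, higher in 8 of 8 mice (log2 difference 0.40 ± 0.12, adjusted p = 0.0104, exact permutation test).

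Of the 2 supply routes, the salvage pair showed the larger difference in its ratio. The ratio of *Fuk* to *Fpgt* averaged 1.77 ± 0.236 in cortex and 3.76 ± 0.339 in cerebellum, 2.13-fold higher and higher in 8 of 8 mice (log2 difference 1.09 ± 0.29, adjusted p = 0.0104, exact permutation test). The ratio of *Gmds* to *Tsta3* averaged 0.285 ± 0.028 in cortex and 0.262 ± 0.033 in cerebellum, lower in cerebellum in 7 of 8 mice (log2 difference -0.12 ± 0.14, adjusted p = 0.0469, exact permutation test). This call was lost without the pairing by mouse (adjusted p = 0.134, exact permutation test) and on leaving out any 1 of the 7 mice with a lower ratio. The exception in direction was the A391T mouse of CBLM445, with a ratio of 0.300 in cortex and 0.338 in cerebellum, and without it the difference was -0.17 (adjusted p = 0.0156, exact permutation test).

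**Figure D4:**
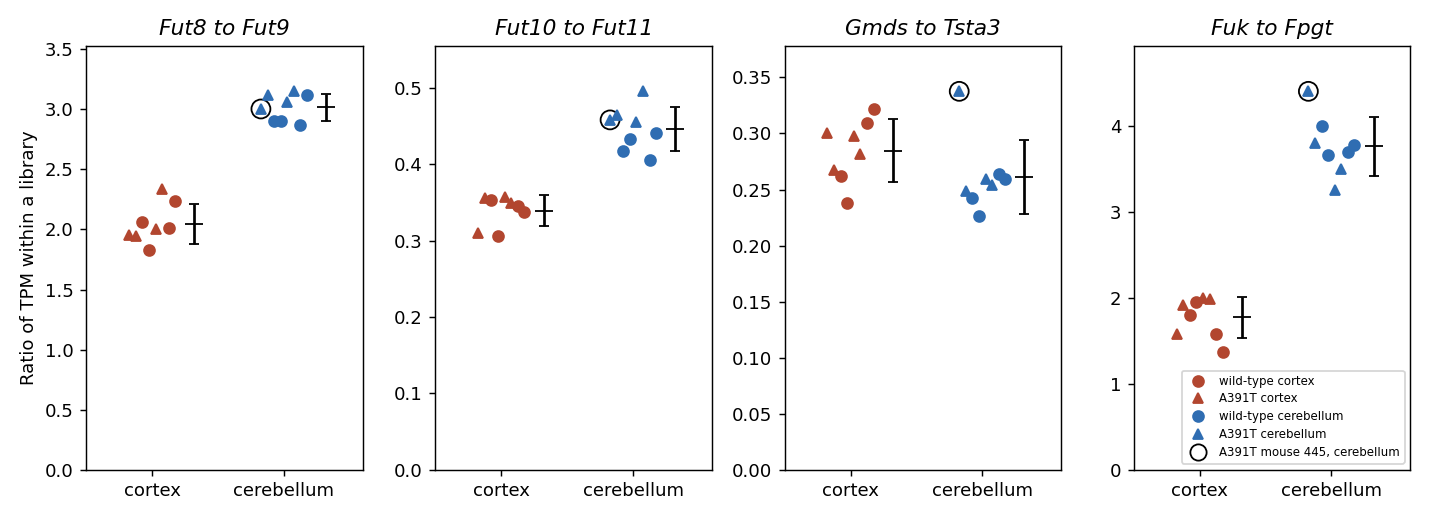
Ratio of TPM of 2 genes within each library for 4 pairs, by region, with the mean and SD over 8 libraries beside the points, circles for wild-type, triangles for A391T mice and a ring at CBLM445. Cortex and cerebellum are apart for *Fut8* to *Fut9*, *Fut10* to *Fut11* and *Fuk* to *Fpgt* and overlap for *Gmds* to *Tsta3*.

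The genotype comparison asked whether the A391T variant alters these genes in either region. In cortex, 0 of 10 genes were called by edgeR, 0 of 10 had an unadjusted p under 0.05 and DESeq2 called 0. Of all 15815 genes edgeR called 2 (0.0126%), 748 had an unadjusted p under 0.05 and DESeq2 called 14. The log2 fold changes of A391T over wild-type ranged from -0.36 for *Fut2* (95% interval -1.10 to 0.39) to 0.02 for *Fuk* (-0.14 to 0.19). In cerebellum, 0 of 10 genes were called by edgeR and 0 by DESeq2, beside 0% of 15668 genes by edgeR, of which 1340 had an unadjusted p under 0.05 and DESeq2 called 30. *Fut10* was the 1 gene with an unadjusted p under 0.05. It was at 10.8 ± 0.764 TPM in wild-type and 12.1 ± 0.86 TPM in A391T cerebellum (SD, n = 4 each), with overlapping ranges, a log2 fold change of 0.22 (95% interval 0.01 to 0.43) and an adjusted p of 0.532 (edgeR). Under the mouse names of the RPKM table this log2 fold change was 0.01. *Fuk* in cerebellum, at 0.01 here, was -0.16 without CBLM445 and 0.18 under those names, without a call in either. The lowest of the 10 in cerebellum was *Slc35c1* at -0.12 (95% interval -0.30 to 0.06).

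The region difference itself was compared between genotypes by the interaction term, which called 0 of 10 genes by edgeR, with 0 at an unadjusted p under 0.05 and 0 by DESeq2, beside 0% of 16589 genes (805 with an unadjusted p under 0.05, and 1 called by DESeq2). The values ranged from -0.07 for *Fut9* (95% interval -0.35 to 0.22) to 0.27 for *Fut2* (-0.45 to 1.00) on the log2 scale. For *Fut10* the interaction was 0.25 (95% interval -0.01 to 0.51, adjusted p = 0.769, edgeR). Apart from *Fut2* in cortex, the intervals of the genotype differences lay between -0.34, for *Fut2* in cerebellum, and 0.43, for *Fut10* and *Gmds* in cerebellum.

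**Figure D5:**
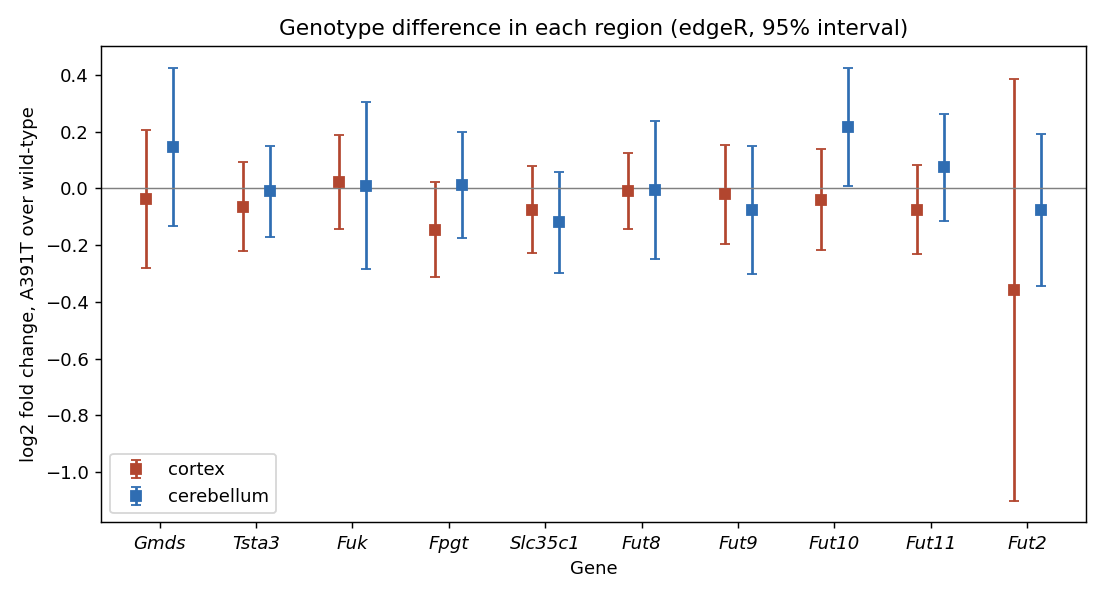
Log2 fold change of A391T over wild-type for each gene in cortex and in cerebellum (4 mice per genotype). Bars are 95% intervals computed from edgeR's test. Intervals include 0 except that of *Fut10* in cerebellum (0.01 to 0.43, adjusted p = 0.532), and the widest is that of *Fut2* in cortex.

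Other genes of fucose metabolism were taken from lists of 27 genes, of which 24 could be tested in the wild-type region comparison. Of these, 8 were higher and 9 lower in cerebellum, beside 34.7% and 33.1% of all genes tested, and the counts of the lists that follow stand beside the same shares. *Fut1*, *Fut4* and *Fut7*, further terminal fucosyltransferases, had at most 15 counts in any library and were not tested there. Among genes that make GDP-mannose, the precursor used by *Gmds*, 1 of 5 was higher (*Gmppa*) and 2 were lower (*Mpi* and *Pmm1*). *Gmppa*, a subunit of the GDP-mannose pyrophosphorylase complex, rose from 43.9 ± 3.90 TPM in cortex to 113 ± 7.72 TPM in cerebellum (SD, n = 4, log2 fold change 1.21, adjusted p = 1.48e-07, edgeR). *Pmm1*, a phosphomannomutase and the highest gene of that list, was lower (log2 fold change -0.34, adjusted p = 0.00406, edgeR) in wild-type mice, and in A391T mice its value was -0.03 (adjusted p = 0.881), with 293 TPM in CBLM445 and 179 to 191 TPM in the other 3 A391T cerebellum libraries.

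All 6 genes for O-fucose transfer and extension were called in the wild-type region comparison, 4 higher (*Pofut1*, *Pofut2*, *Lfng* and *Rfng*) and 2 lower (*Mfng* and *B3galtl*). *Pofut1* and *Pofut2* encode the enzymes that attach O-fucose, and the fringe genes *Lfng*, *Mfng* and *Rfng* extend it. *Rfng*, the highest of them, went from 75.6 ± 2.22 TPM in cortex to 106 ± 4.02 TPM in cerebellum (SD, n = 4, log2 fold change 0.33, adjusted p = 0.000142, edgeR). Of 5 genes of lactosamine synthesis, which builds the acceptor of *Fut9*, 0 were higher and 2 lower, *B4galt2* and *B3gnt2*. *B4galt2*, a galactosyltransferase, fell from 87.9 ± 10.0 TPM in cortex to 32.1 ± 0.896 TPM in cerebellum (log2 fold change -1.60, adjusted p = 1.52e-08, edgeR). Of 4 Golgi genes that act before core fucosylation, 1 was higher, *Man2a2*, and 2 were lower, *Man2a1* and *Mgat1*. *Man2a2*, a Golgi mannosidase and the highest of them, had a log2 fold change of 0.52 (adjusted p = 0.0153, edgeR), with 81.8 TPM in CTX480 and 121 to 157 TPM in the other 3 wild-type cortex libraries. Of the 2 fucosidases, *Fuca1* was higher (log2 fold change 0.49, adjusted p = 0.000104, edgeR), and *Fuca2*, at a higher level, had a value of 0.08 (adjusted p = 0.338) in wild-type mice and was called in A391T mice (0.22, adjusted p = 0.0103, edgeR). *Slc35c2*, which encodes a second transporter of the same family, rose by 0.22 on the log2 scale (adjusted p = 0.00456, edgeR).

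Genes with the most similar pattern over the 16 libraries were found by the root mean square difference of centred log2 CPM values, among 16588 genes. Those most like *Fut8* were *Jam2* (0.049), *Tfg* (0.067) and *Samd10* (0.070), where the median of all genes was 0.446. Those most like *Fut9* were *Cog6* (0.071), *Snx13* (0.071) and *6720456H20Rik* (0.077), and those most like *Gmds* were *Lias* (0.062), *Ptges3* (0.064) and *Isca1* (0.067). Those most like *Fut2* were farther from it, *Dennd2d* (0.284), *Mamdc4* (0.291) and *Hr* (0.291), with a median of all genes of 0.983. These are descriptions over libraries that share region and mouse, and none of the nearest 3 genes listed for these 4 was another of the 10.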

How the data were processed

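Reads of 50 bases from polyA-selected directional libraries were mapped to mm9 (STAR) and counted over Ensembl genes (HTSeq, no strand) by the authors, who deposited raw counts. The deposited RPKM values, made by the authors, were used here for gene names, gene lengths and column names only. Counts were tested with edgeR 4.0.16 (R 4.3.3, quasi-likelihood, filterByExpr, TMM, Benjamini-Hochberg over all genes). DESeq2 1.42.0, other scalings, filters, sample names, a mouse block and left-out libraries were alternatives. HTSeq's rows that name no gene stayed out of library sizes (reads on no gene were 10.2% to 13.2% of entries, ambiguous reads 2.2% to 2.75% and reads not mapped uniquely 8.41% to 12.1%). TPM was computed from counts and deposited lengths. Each standard deviation is over mice. Cortex and cerebellum come from the same animals per the study's methods; deviations from group means correlated between regions of the same mouse from -0.10 to 0.12 across genes. Depth was 20813432 to 30497206 counts per library, and reads without molecular identifiers count fragments, so intervals of counts cover counting error only. Libraries of a group differed beyond counting noise (chi-square per degree of freedom at least 2.93), and none was a repeat of another. Coordinates are those of NCBIM37. Promoter sequences are from RefSeq. Every one of the 10 genes is named, and other genes by list: those called with a 2-fold change between regions in wild type or called between genotypes, plus the highest of each list. Genes behind counts of 5 or fewer were named after their values were seen. The genes and lists were chosen with earlier results of these data known. The separate mice measure biological spread, with 4 per genotype.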

Additional observations from a re-analysis of the deposited data

Results flagged for a closer look

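In groups of 4 libraries, the gap between the highest or lowest library and its nearest neighbour was compared with the range of the group, and 7 of 56 groups exceeded Dixon's limit, where chance flags about 1 in 20 groups. *Gmds* was highest in A391T cerebellum in CBLM445, at 25.2 TPM against 19.9 to 20.5 TPM in the other 3, and the ratio of *Gmds* to *Tsta3* was highest in the same library at 0.338. This is the library that stood apart in 71.0% of genes. *Tsta3* was lowest in wild-type cortex at 62.3 TPM, *Fpgt* highest in A391T cortex at 14.0 TPM and *Fut10* highest in wild-type cerebellum at 11.9 TPM. The ratio of *Fut8* to *Fut9* was highest in wild-type cerebellum at 3.12 and in A391T cortex at 2.34.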

How the results depend on the processing

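*Fuk* and *Fut2* were called higher in cerebellum under every alternative run, in each genotype and over all mice. The genotype and interaction comparisons called 0 of the 10 genes under every alternative run. Of the alternative values run (the region fold changes of all 10 genes, the highest and lowest genotype and interaction values, *Fut10* in cerebellum and in the interaction, and *Fuk* in cerebellum), 742 kept direction and side of the threshold, 25 gained a call, 29 lost one and 33 reversed. Over all 10 genes, 50 of the 589 genotype and interaction values reversed direction and 0 were called, and under RPKM table names 7 of 30 reversed. The number of genes both called and 2-fold moved from 2 to 1 in wild-type mice (RLE factors, DESeq2, RPKM table names with and without the replicate block, without the libraries that stood apart, and leaving out CTX479, CTX480 or CBLM479), and from 1 to 2 in A391T mice (library totals, RPKM table names with and without the block, matching names, leaving out single libraries) and over all mice (library totals, matching names, leaving out single libraries). Called genes came to 3 in wild-type mice with the 1 cerebellum library with little *Ttr*, an arm of 1 that is assumed to vary like the others and says nothing about *Ttr*, and to 7 in A391T mice with library totals, where 60.9% of all called genes were higher in place of 50.2% (over all mice 61% in place of 52.1%). Fewer of all genes tested were also called in that fit with 1 cerebellum library, so the lower count is not particular to the 10 genes. With library totals in A391T mice, 10682 of all 16005 genes were called, beside 10056 of 16005 with TMM scaling. The replicate block by mouse in the edgeR fits changed 1 call, *Fpgt* in wild type (adjusted p = 0.058, edgeR).

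The log2 ratio differences of *Fut8* to *Fut9*, *Fut10* to *Fut11*, *Gmds* to *Tsta3* and *Fuk* to *Fpgt* were 0.54, 0.34, -0.18 and 1.19 in the wild-type mice alone and 0.59, 0.45, -0.070 and 1.00 in the A391T mice alone, where 4 mice cannot pass the exact permutation test (adjusted p at least 0.125). Without pairing, *Gmds* to *Tsta3* stayed at -0.12 and lost its call. Leaving out single mice gave 0.55 to 0.58, 0.37 to 0.42, -0.17 to -0.10 and 1.04 to 1.15.

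No value with a reversed direction was called. With library totals, *Gmds* was 0.050 in wild-type mice and *Fpgt* was 0.083 in A391T mice and 0.011 over all mice, and *Fuk* between genotypes in cerebellum was -0.0051. With RPKM table names, *Fut9* in A391T mice was -0.012, and -0.022 with the block, and with matching names -0.15 there and -0.021 over all mice. Without the libraries that stood apart, *Gmds* was 0.021 in wild-type mice, -0.036 in A391T mice and -0.00029 over all mice, *Fuk* between genotypes was -0.023 in cortex and -0.16 in cerebellum, and the interaction of *Fut9* was 0.059. With little *Ttr*, which leaves 1 cerebellum library per genotype, *Gmds* was -0.061 in A391T mice and -0.087 over all mice. Over all mice *Gmds* was also -0.0021 with RLE factors, -0.00075 with DESeq2, -0.013 with the CPM filter and -0.038 without CTX445 and CBLM445. On leaving out single libraries, *Gmds* ranged from -0.14 to 0.021 in wild-type mice (reversed without CTX480), -0.036 to 0.14 in A391T mice (CBLM445) and -0.060 to 0.066 over all mice (CTX448, CBLM445, CBLM447 and CBLM480). *Fut9* ranged from -0.049 to 0.13 in A391T mice (CTX462 and CBLM462), *Fuk* between genotypes from -0.023 to 0.061 in cortex (CTX480) and from -0.16 to 0.075 in cerebellum (CBLM445 and CBLM448), and the interactions of *Fut9* from -0.14 to 0.034 (CBLM445) and of *Fut2* from -0.0025 to 0.53 (CTX479). The cause was not tested. The alternatives by *Ttr*, by libraries that stood apart and without CTX445 and CBLM445 were chosen after seeing the data. Mean levels in TPM were 40, of 10 genes in 4 groups. By more than their SD, 12 moved with exon bases as gene length, 7 with RPKM table names and 6 with TMM factors. Exon bases were a setting also added after seeing the data. CPM carries no gene length and is another unit, so a shift from TPM to CPM is no measure of stability. As CPM, *Fut9* was above *Fut8* in both regions. Low counts limit *Fut2* in cortex, at 8 to 28 counts a library.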
